A study of Mus musculus with 12 samples.

Results

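Extra H/R regions were stretches of mRNA that carried a peak of N6-methyladenosine (m6A) immunoprecipitation in all 3 libraries of neural stem cells (NSCs) after hypoxia/reoxygenation (H/R) and in no control library, within genes that had some other peak in all 3 control libraries. Peaks of the 6 mRNA lists were merged wherever they shared at least 1 bp, and 896 of the 27079 merged regions met this rule. They lay in 696 of the 4096 genes called in all 3 control lists (17%). The calls themselves chose the regions, so their presence after H/R and absence in control are a description and were not tested. The cells were C17.2, an immortalised wild-type NSC line from mouse cerebellum. The H/R group spent 12 h at 5% O2 and then 48 h back at standard oxygen, as a culture model of ischemia and reperfusion, and the control group carried no treatment in the labels. Each group had 3 immunoprecipitates and 3 inputs, and the peak lists, lettered A to C in each group, were called on an immunoprecipitate against its input. No source used here ties the letters to numbered replicates or states that the replicates were separate cultures, read numbers were not used, and a single line stands for NSCs here.

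In m6A, a methyl group is written onto adenosines of mRNA by a nuclear complex around METTL3 and METTL14, removed by FTO and ALKBH5 and read by proteins such as the YTH family, which change the splicing, translation and decay of the mRNA. The mark favours a short consensus around the methylated A, and in most mammalian mRNAs it is concentrated in long internal exons and around the stop codon. An immunoprecipitation peak is a stretch where the antibody recovered more fragments than the background predicts, so its call depends on the RNA level and the depth of the library as well as on methylation. A region that was called after H/R and not in control is therefore a difference in calls, and the mRNA lists hold no control value at its place.

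The bases of 6 extra H/R regions and of control peaks from 2 of the same genes are shown because the findings turn on them: each is a whole coding exon, and the pairs lie next to each other along the spliced mRNA. They were read on the transcript strand from the mouse genome build GRCm38 (mm10), which the files use. Capitals mark each match to the consensus termed DRACH, that is A, G or T, then A or G, then A, then C, then A, C or T. In Aplp2, the amyloid precursor-like protein 2, exon 6 was the extra H/R region and exon 5, directly upstream in the mRNA, was called in all 6 lists. In Kif20b, a mitotic kinesin needed for the end of cell division, exon 24 was the extra H/R region and exon 25, directly downstream, was called in all 3 H/R lists and 2 control lists. The others are an exon of Cwc22, a spliceosome protein, of the kinetochore kinesin Cenpe, of the microtubule-binding Clip2 and of the ciliary protein Dzip1l.
Aplp2 exon 6, chr9:31168708-31168916 (-): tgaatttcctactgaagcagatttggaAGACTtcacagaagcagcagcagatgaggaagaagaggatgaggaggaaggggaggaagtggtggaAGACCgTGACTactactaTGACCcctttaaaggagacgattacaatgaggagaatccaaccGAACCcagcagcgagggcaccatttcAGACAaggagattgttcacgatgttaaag
Aplp2 exon 5, chr9:31170437-31170633 (-): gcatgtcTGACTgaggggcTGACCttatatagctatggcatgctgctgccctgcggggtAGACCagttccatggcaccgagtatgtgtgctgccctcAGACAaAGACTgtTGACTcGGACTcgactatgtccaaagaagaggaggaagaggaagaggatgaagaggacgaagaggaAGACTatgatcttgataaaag
Kif20b exon 24, chr19:34957417-34957544 (+): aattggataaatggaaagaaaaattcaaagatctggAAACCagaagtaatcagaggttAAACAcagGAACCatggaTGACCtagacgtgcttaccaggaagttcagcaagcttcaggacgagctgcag
Kif20b exon 25, chr19:34959416-34959571 (+): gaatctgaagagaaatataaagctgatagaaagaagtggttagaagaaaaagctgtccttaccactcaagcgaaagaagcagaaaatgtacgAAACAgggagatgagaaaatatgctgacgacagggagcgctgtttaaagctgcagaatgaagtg
Cwc22 exon 6, chr2:77929256-77929498 (-): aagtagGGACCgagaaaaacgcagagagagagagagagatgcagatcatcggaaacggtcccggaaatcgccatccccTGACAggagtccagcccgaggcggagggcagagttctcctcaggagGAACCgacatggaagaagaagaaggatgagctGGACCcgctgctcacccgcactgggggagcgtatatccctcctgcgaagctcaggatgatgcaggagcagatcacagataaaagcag
Cenpe exon 16, chr3:135232897-135233064 (+): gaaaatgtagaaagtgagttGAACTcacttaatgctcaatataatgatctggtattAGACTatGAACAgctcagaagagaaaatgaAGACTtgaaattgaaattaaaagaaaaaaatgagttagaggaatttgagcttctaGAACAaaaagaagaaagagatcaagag
Clip2 exon 15, chr5:134492219-134492404 (-): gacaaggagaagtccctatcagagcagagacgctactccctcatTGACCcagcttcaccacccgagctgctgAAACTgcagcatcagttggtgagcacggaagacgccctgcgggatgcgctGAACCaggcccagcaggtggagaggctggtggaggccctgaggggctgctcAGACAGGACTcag
Dzip1l exon 5, chr9:99642533-99642694 (+): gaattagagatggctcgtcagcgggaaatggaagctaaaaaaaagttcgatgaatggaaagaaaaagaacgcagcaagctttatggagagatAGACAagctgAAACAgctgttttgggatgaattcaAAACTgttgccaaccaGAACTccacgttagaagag
The Aplp2 H/R exon held 6 matches and its control neighbour 8. The Kif20b H/R exon held 4 matches and its neighbour 1. The consensus thus stood on both sides of the exon border in these genes, whichever exon was called in control.

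The first question was how much of the difference between the lists these regions made up. Regions present in the 3 H/R lists and absent from every control list were 6.21% of all 27079 merged regions and 5.63% of the 15907 regions in genes called in all 3 control lists, and this second share is the 896 described here. Turned round, regions present in the 3 control lists and absent from every H/R list were 17 of all regions (0.0628%), and 8 of these lay in genes called in all 3 H/R lists. The H/R lists were longer, with 18706, 13954 and 22038 mRNA peaks in H/R A to C, against 12180, 8932 and 7863 in control A to C. When every list was shortened to its 7863 peaks with the highest p scores, the rule kept 83 regions and the rule turned round kept 60. Of the 896 regions, 27 were still extra H/R regions in those lists of equal length. The count also depended on how many lists the rule used: without H/R B it was 1910, and without control A it was 1657. Leaving out a list loosens the rule, so a higher count follows from the rule itself. The plot of region counts by setting shows that H/R regions outnumbered control regions in each setting drawn, by a margin that shrank most in lists of equal length.

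**Figure D1:**
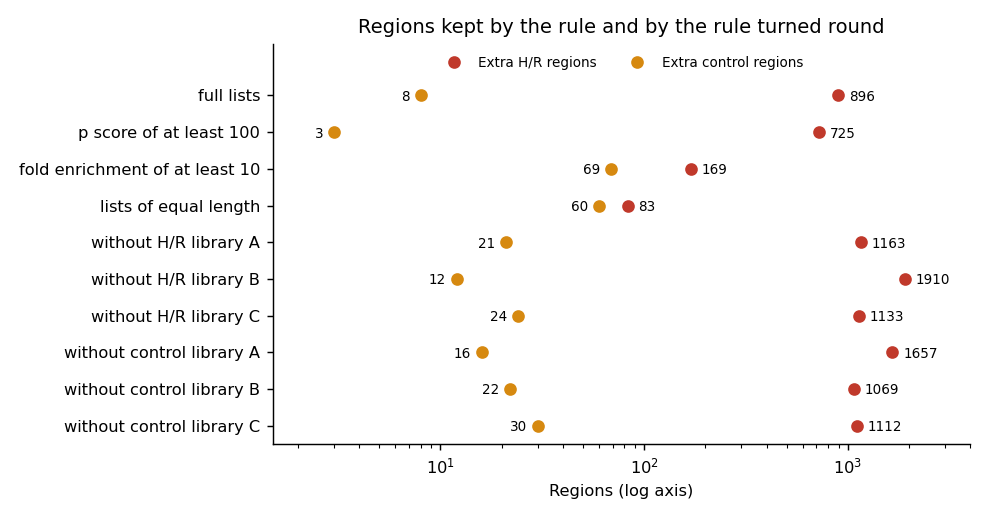
Number of extra H/R regions (red) and of extra control regions from the rule turned round (orange) on a log axis, for the full lists, for stricter peaks, for lists of equal length and without each library in turn. The full lists gave 896 and 8 regions, and lists of equal length gave 83 and 60.

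Many regions lay close to the limits of the rule. In genes called in all 3 control lists, 976 further regions had a peak in all 3 H/R lists and in exactly 1 control list, which was control A, the longest, for 746 of them. Another 1518 regions had a peak in 2 H/R lists and no control list, and H/R B, the shortest H/R list, was the missing one for 1013. The lowest of a region's 3 H/R p scores, a measure in which 50 stands for a p of 1e-05 and higher values for smaller p, had a median of 95.9 in the extra H/R regions and of 162 in those with 1 control list. The lowest of the 3 fold enrichments had a median of 6.82 in the extra H/R regions and 7.77 in those with 1 control list. By that lowest p score, 154 of the 896 regions (17.2%) were under 60 and 465 (51.9%) were under 100, and the lowest score came from H/R B in 546.

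Fold enrichment, the ratio of immunoprecipitated signal to local background, was lower in the extra H/R regions than in other regions of the same genes. The regions had median folds of 7.62, 10.9 and 9.30 in H/R A to C. In the 1250 regions of these genes called in all 6 lists, the medians were 17.1, 23.5 and 18.8 in H/R A to C and 29.1, 37.9 and 28.8 in control A to C. Within a gene and library, an extra H/R region had a median of 0.431, 0.449 and 0.464 times the median fold of the gene's shared regions in H/R A to C, and it was the lower of these in 774, 771 and 737 of 841 regions. H/R-only regions in other genes had medians of 7.93, 11.3 and 10.3 in H/R A to C, close to those of the extra H/R regions. The extra H/R regions were thus the weaker peaks of their genes, as the plot of fold enrichment shows. Because they were chosen by their calls, this is a description and no test was made.

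**Figure D2:**
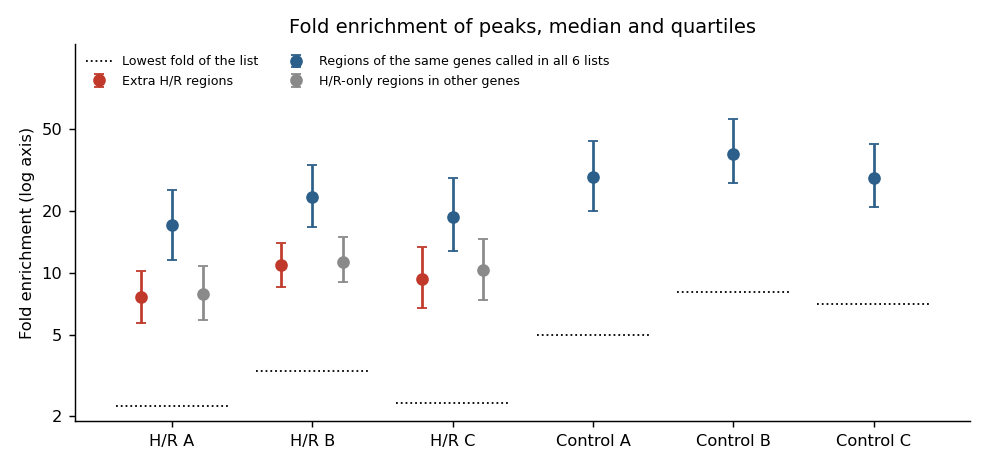
Fold enrichment of peaks (log axis) in each H/R and control list, as median (points) and quartiles (bars), for extra H/R regions (red), regions of the same genes called in all 6 lists (blue) and H/R-only regions in other genes (grey), with the lowest fold of each list dotted. The red medians of 7.62, 10.9 and 9.30 lay near the lowest folds of the control lists, which were 4.99 to 8.07, and below the blue medians of 17.1, 23.5 and 18.8 in the same libraries.

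The control lists began at higher folds than the H/R lists. The lowest folds were 2.24, 3.32 and 2.32 in H/R A to C, against 4.99, 8.07 and 7.06 in control A to C. In 3, 124 and 71 of the 896 regions all 3 H/R folds lay below the lowest fold that control A to C listed at all. Against the fold below which only the weakest 5% of a control list lay, which was 10.2, 17.0 and 14.0 in control A to C, all 3 H/R folds were lower in 283, 715 and 568 regions. Most extra H/R regions thus had folds that only the weakest peaks of control B and C had. The false discovery rate that the authors' caller gave was high throughout, with a median of 85.6%, 100% and 75.7% for the extra H/R peaks of H/R A to C. A fold of at least 10 in all 3 H/R lists was found in 166 regions (18.5%). How much of the difference in calls came from depth or background was not tested.

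The second question was where the regions lay relative to the peaks that control cells had in the same mRNA. In the genome their median distance to the nearest control peak of the gene was 4718.5 bases, with a range of 109 to 635709. Along the spliced mRNA, where 874 of the 896 could be placed together with a control peak, the median distance was 38 bases. Of these, 429 (49.1%) directly adjoined a control peak at an exon border, 508 (58.1%) lay within 100 bases and 797 (91.2%) within 1000 bases. The nearest control peak was in the next exon for 431 regions, 2 exons away for 167, 3 or more exons away for 274 and in the same exon for 2. About as many extra H/R regions thus lay in the exon beside a called control exon as farther away. In the genome, the control peak nearest to these 429 adjoining regions lay at a median of 2488 bases, the shortest gap being 109 bases. That peak was chosen by genome distance and was not always the one adjoined along the mRNA.

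**Figure D3:**
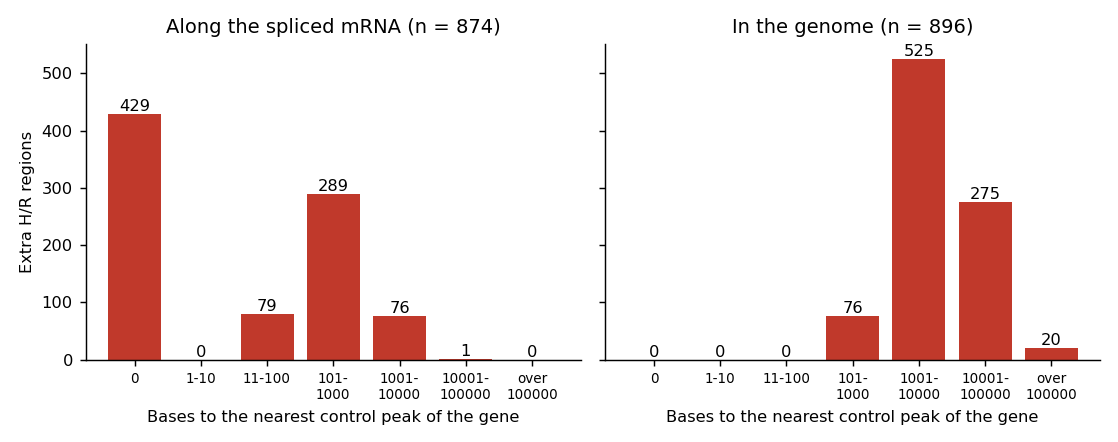
Number of extra H/R regions by their distance, in bases, to the nearest control peak of the gene, along the spliced mRNA (left, 874 regions) and in the genome (right, 896 regions). Along the mRNA 429 regions adjoined a control peak, and in the genome the tallest bar, above 1000 and up to 10000 bases, held 525 regions.

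Other peaks were also near control peaks, to differing degrees that were not tested. Regions of the same genes called in all 6 lists adjoined another control peak in 678 of 1066 cases (63.6%), a higher share than the 49.1% of the extra H/R regions. H/R-only regions in other genes that had a control peak adjoined one in 113 of 326 cases (34.7%). The median distances along the mRNA were 0 and 145.5 bases in these groups, against 38 bases in the extra H/R regions. The control neighbour itself was not always a constant one. It belonged to a region called in all 3 control lists for 538 of the 874 regions, in 2 lists for 142 and in 1 list for 194. With the distance taken only to regions called in all 3 control lists, the median along the mRNA was 173.5 bases.

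The regions were more often upstream than downstream of the control peak. Of the 874 regions, 553 (63.3%) lay 5' and 321 lay 3' of the nearest control peak. Among regions of the same genes called in all 6 lists, 513 of 1066 (48.1%) lay 5', and among H/R-only regions in other genes 224 of 326 (68.7%). For 553 of the 1066 the nearest control peak lay in another region called in all 6 lists. Regions nearest to each other fall on opposite sides, which draws the 48.1% towards an even split, so it is not a free baseline. Regions centred in coding sequence lay 5' in 346 cases and 3' in 260, so the excess was not limited to the 5'UTR, where 95 lay 5' and 2 lay 3'. In the next exon, 265 lay 5' and 166 lay 3'. With a fold of at least 10 the share on the 5' side was 76.5%. Regions of a gene share its mRNA and are not replicates, so these shares carry no p.

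Length was the third feature described. The median was 163 bases, with quartiles of 114 and 258 and a range of 27 to 3362, against 459.5 bases for regions of the same genes called in all 6 lists and 277.5 bases for H/R-only regions in other genes. The lengths were those of exons. Of 894 regions with a transcript model, 792 (88.6%) were whole exons, against 1019 of 1243 shared regions (82.0%) and 578 of 771 H/R-only regions in other genes. In 743 regions (82.9%) the start and the end were identical in all 3 H/R lists. At least 1 edge lay on an exon edge in 886 regions (99.1%). The authors screened peaks for exons with a program of their own, and whether that step trimmed them to exon borders is not given in the sources used here. The 3 longest regions lay in last exons and were centred in the 3'UTR, in Ranbp10 (3362 bases), Gpatch2 (3348 bases) and Uggt1 (2684 bases). The 3 shortest were small exons of Ap1ar (27 bases), Eml4 (33 bases) and Cd276 (36 bases).

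By the place of its centre, a region was assigned first to a window reaching 100 bases to each side of the start or the stop codon, and otherwise to coding sequence or a UTR. Coding sequence held 615 of 891 extra H/R regions (69.0%), the start codon window 133 (14.9%), the 5'UTR 97 (10.9%), the 3'UTR 30 (3.37%) and the stop codon window 16 (1.80%). In regions of the same genes called in all 6 lists, coding sequence held a like share (69.4%), while the start codon window held 7.25%, the 5'UTR 4.59% and the 3'UTR 15.3%. H/R-only regions in other genes had 49.5% in coding sequence, 19.0% in the start codon window, 13.2% in the 5'UTR and 12.8% in the 3'UTR. First exons held 180 of 889 extra H/R regions (20.2%) and last exons 42 (4.72%), against 11.1% and 22.3% of the shared regions. In H/R-only regions of other genes, first exons held 32.3% and last exons 20.7%. The extra H/R regions thus lay at inner and first exons, and few were in the last exon. Their higher share at the 5' end than in the shared regions was not particular to them, since H/R-only regions in other genes had it too. The shares moved with the setting. Without control A the 3'UTR held 7.20%. With a fold of at least 10 the 5'UTR held 25% and coding sequence 49.4%, and in lists of equal length the start codon window held 24.1%, the 5'UTR 7.23% and the 3'UTR 6.02%. With each base counted in place of the centre, the 3'UTR held 16.1% of the bases of the extra H/R regions and 32.2% of those of the shared regions.

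**Figure D4:**
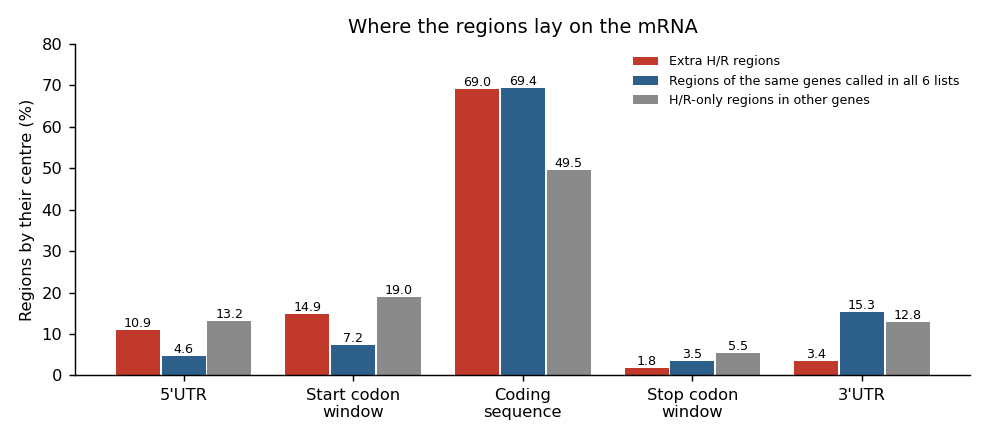
Share of regions (%) by the class of their centre, for extra H/R regions (red), regions of the same genes called in all 6 lists (blue) and H/R-only regions in other genes (grey). Coding sequence held 69.0% of the extra H/R regions and 69.4% of the shared regions, and the 3'UTR 3.37% and 15.3%.

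How the density of the consensus compared with that of other regions depended on length. Among regions of 100 to 200 bases, DRACH occurred 21.3 times per kb in the extra H/R regions, 21.8 in shared regions of the same genes and 20.7 in H/R-only regions of other genes, and at least 1 match was found in 95.7%, 96.3% and 93.4% of these regions. On the opposite strand of the same lengths the densities were 12.5, 10.8 and 12.5 per kb. Among regions longer than 200 and up to 400 bases the extra H/R regions held fewer matches, 15.2 per kb, against 20.1 in shared regions of the same genes and 14.8 in H/R-only regions of other genes, and at least 1 match was found in 92.2%, 97.4% and 97.1% of them. At all lengths the density was 18.4 per kb in the extra H/R regions and 21.4 in the shared regions. The core GGAC occurred 4.58 times per kb in the extra H/R regions and 4.65 times in the shared regions at all lengths. Inner exons of the host transcripts allow a closer comparison. Those with an extra H/R region held 21.3 matches per kb (689 exons), those with a control peak 23.1 (1568 exons) and those with no peak in any list 21.6 (6547 exons), with median lengths of 142, 171 and 124 bases. At least 1 match was found in 95.6%, 95.7% and 91.0% of these exons. By density, exons with an extra H/R region were therefore close to exons without any peak. By share with a match they were close to exons with a control peak, and in length they lay between the other groups. A match to the consensus is a description of the letters and does not place a methylated base.

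The host genes were long and had many exons. Genes with an extra H/R region had a median transcript length of 4771 bases and 13 exons, against 3757 bases and 8 exons for the other genes called in all 3 control lists. They had on average 5.26, 4.52 and 5.70 peaks in H/R A to C, against 2.96, 2.38 and 2.22 in control A to C, a difference that the rule favours. The other genes had 2.57, 2.12 and 2.85 peaks in H/R A to C, against 2.13, 1.78 and 1.67 in control A to C. More exons give more places for a call, and this was not corrected for. Of the 696 genes, 547 had 1 extra H/R region, 115 had 2 and 34 had 3 or more, and 41 had no region called in all 6 lists. Extra H/R regions stood in neighbouring exons in 41 pairs.

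Cenpe had the most, with 7 extra H/R regions among the 21 regions of its mRNA. This kinesin carries chromosomes along microtubules to the spindle equator. The strongest was exon 16 shown above, with folds of 10.1, 40.8 and 12.8 in H/R A to C and p scores of 255, 725 and 222. It lay 630 bases upstream of the nearest control peak. The extra exons formed groups on either side, exons 15, 16 and 20 on the 5' side and exons 37, 38, 44 and 46 on the 3' side of a central block, exons 22 to 36, that held each control peak of the gene. In that block exon 32 alone was called in all 6 lists, with folds of 25.04, 41.8 and 25.2 in H/R A to C and 43.6, 66.7 and 24.7 in control A to C. Control C listed no other peak in Cenpe, so the absence of a call there was not confined to the extra exons.

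Kif20b, the kinesin of the midzone, had 5 extra regions in exons 21, 23, 24, 26 and 28. Its control peaks were in exons 18, 19 and 25, so 3 of the extra regions lay between control peaks, 2 lay 3' of them and none lay 5'. Exon 24 had folds of 14.7, 28.8 and 13.9 and p scores of 635, 795 and 555 in H/R A to C. Its neighbour exon 25 had folds of 14.0, 19.6 and 10.0 in H/R A to C and of 14.2 and 26.0 in control A and B, so the exon without a control call had the higher fold in each H/R library. The other 4 extra regions of Kif20b were weaker, with folds of 5.83 to 13.9. In Clip2, which binds the growing ends of microtubules, 6 extra regions in exons 5, 8, 12, 13, 15 and 17 lay on both sides of exon 10, which had folds of 56.3, 81.3 and 89.0 in H/R A to C and 87.3, 104.8 and 77.3 in control A to C. The strongest of the extra regions was exon 15, with folds of 7.97, 9.99 and 16.7 and p scores of 253, 234 and 911. In each H/R library the extra regions of Cenpe had lower folds than its exon 32 and those of Clip2 lower folds than its exon 10. Clip2 exon 7, also called in all 6 lists, had folds of 10.86, 46.8 and 16.9 in H/R A to C. Extra exon 13 exceeded exon 7 in H/R A (12.8) and extra exon 12 did in H/R C (18.3), while no extra region did in H/R B. In Kif20b, exon 24 matched or exceeded exon 19 in each H/R library. That exon 19 was called in all 6 lists, with folds of 13.6, 28.2 and 10.46 in H/R A to C and 19.2, 33.9 and 27.5 in control A to C.

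**Figure D5:**
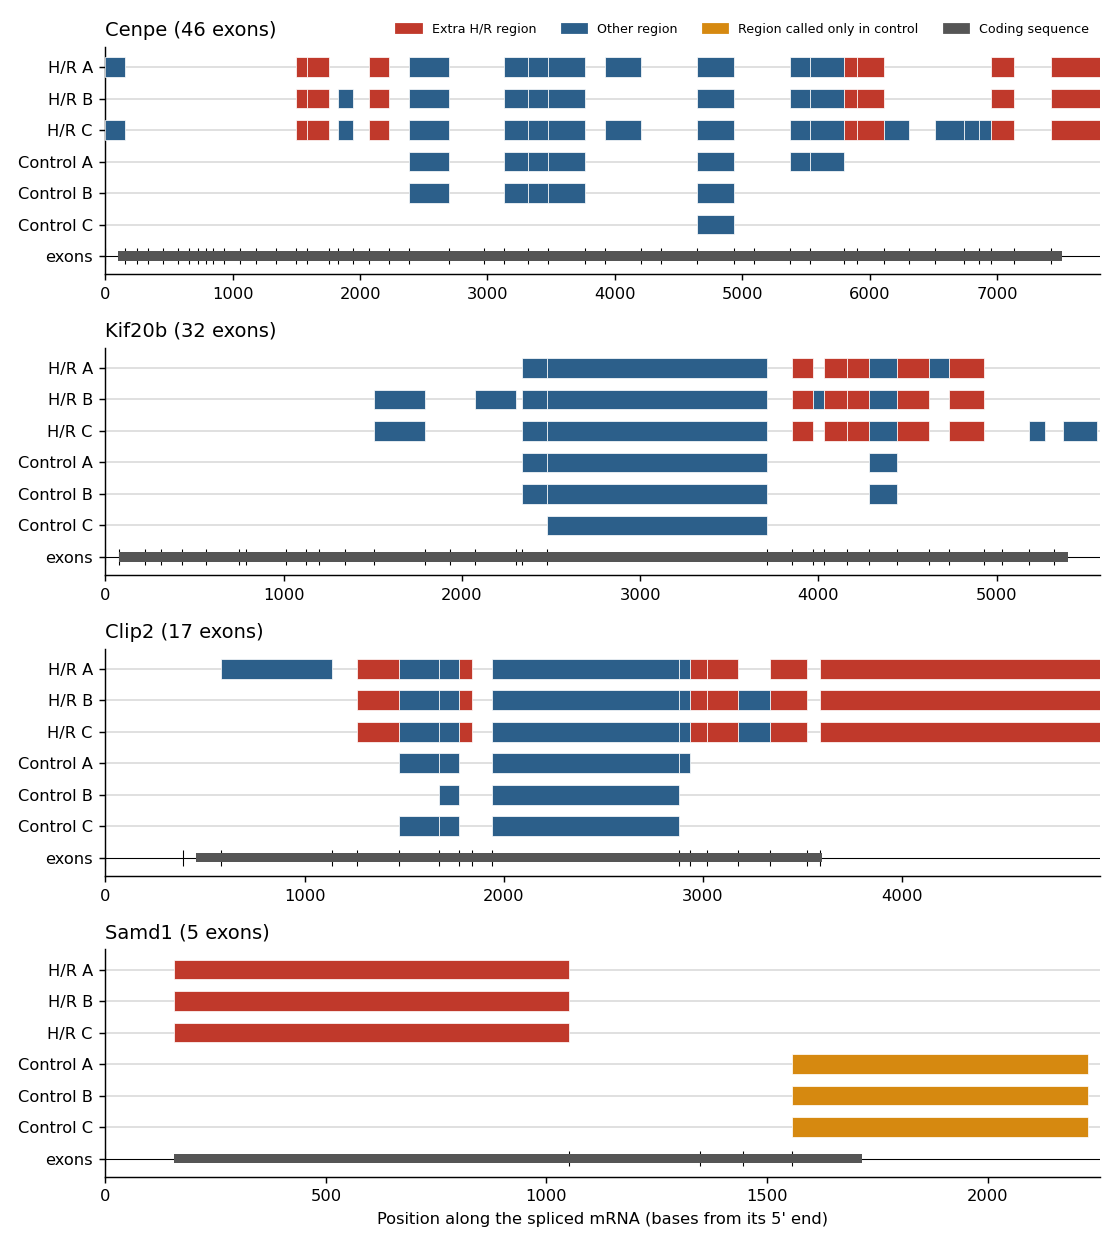
Peaks along the spliced mRNA (bases from its 5' end) of Cenpe, Kif20b, Clip2 and Samd1 in H/R A to C (upper rows) and control A to C (lower rows), with extra H/R regions in red, other regions in blue and a region called only in control in orange, and exon borders as ticks on the coding sequence. Extra H/R regions lie on both sides of a peak called in all 6 lists in Cenpe (7 regions) and Clip2 (6 regions) and on its 3' side in Kif20b (5 regions), and in Samd1 the H/R and control calls lie in different exons.

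Epb4.1l1 and Dst, which link membranes and cytoskeletal filaments, had 5 extra regions each. In Epb4.1l1 the strongest was exon 19, with folds of 7.51, 19.1 and 14.9 and p scores of 489, 254 and 519 in H/R A to C, 168 bases from a control peak along the mRNA. In Dst it was exon 55 of 93, with folds of 7.37, 10.6 and 9.42 and p scores of 408, 220 and 656. Dst held 28, 20 and 27 peaks in H/R A to C and 13, 9 and 11 in control A to C. In each of these 5 genes every H/R list held more peaks than any control list. The same held for 749 of the 4096 genes called in all 3 control lists (18.3%) and for 565 of the 696 with an extra H/R region (81.2%), which the rule that chose them favours.

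The regions with the strongest evidence, ranked by the lowest of the 3 p scores, were found in other genes. Gpank1, which codes for a G-patch and ankyrin repeat protein, came first, with p scores of 3100, 3047 and 3123 and folds of 20.7, 39.7 and 26.6 in H/R A to C over the whole of exon 2 (chr17:35124220-35124815). The mRNA has 2 exons, and the first was called in all 6 lists, with folds of 16.4, 21.2 and 19.9 in H/R A to C and 42.6, 48.5 and 80.4 in control A to C. Exon 2 thus had the higher fold in each H/R library, while control libraries listed only exon 1, 560 bases away, at folds above those it had after H/R. Rps19bp1, a binding protein of ribosomal protein S19, followed with its last exon, where p scores were 3100, 2869 and 3100 and folds 13.7, 19.6 and 17.4, 98 bases downstream of a control peak along the mRNA.

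Aplp2 exon 6 had p scores of 2643, 3100 and 3125 and folds of 14.1, 17.97 and 17.4 in H/R A to C. Its upstream neighbour, exon 5, had folds of 11.5, 21.6 and 13.7 in H/R A to C and 19.9, 25.5 and 18.4 in control A to C. Exon 6 had the higher fold in H/R A and C and exon 5 in H/R B. Aplp2 had a second extra region in exon 3, which was weak, with folds of 3.53, 6.59 and 4.18. Eif4g1, the scaffold of the complex that recruits ribosomes to capped mRNA, had an extra region of 813 bases in exon 10, with p scores of 3228, 2169 and 3100 at folds of only 5.90, 6.92 and 10.01. It lay 3087 bases upstream of the control peak. Here the p scores were high at a modest fold, and the rank by p score was not a rank by fold.

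First exons made up 4 of the 10 strongest regions. In Rrp15, which takes part in ribosomal RNA processing, exon 1 had folds of 37.2, 78.5 and 20.4 and p scores of 2191, 2611 and 1878 in H/R A to C, and it lay 358 bases from a control peak along the mRNA. Cald1, the actin-binding caldesmon, had folds of 11.8, 28.0 and 19.5 and p scores of 1639, 2240 and 1847 in exon 1, which is 5'UTR. Ptpn1, a tyrosine phosphatase of insulin and leptin signalling, had folds of 28.4, 28.3 and 30.2 and p scores of 2109, 1510 and 3100 in exon 1. At Ptpn1 the control libraries were not without a peak, since their lncRNA lists held one beside it. Samd1, whose product binds unmethylated CpG islands, had folds of 21.3, 20.6 and 20.3 and p scores of 3100, 1215 and 3100 in exon 1 in H/R A to C. It was the 1 gene of the 8 control-only regions that also had an extra H/R region, since its last exon was called in control A to C alone, with folds of 18.2, 25.1 and 20.9.

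The remaining regions of these 10 were Cwc22 exon 6 and Uggt1 exon 41. Cwc22 brings the exon junction complex to the spliceosome, and its exon 6 had folds of 11.4, 14.0 and 12.5 and p scores of 1255, 1652 and 2095 in H/R A to C. It lay 1709 bases upstream of the control peak. Uggt1, an enzyme that recognises misfolded glycoproteins in the endoplasmic reticulum, had folds of 12.7, 12.5 and 14.9 and p scores of 3100, 3100 and 924 in its last exon. All 10 were among the 27 regions that remained in lists of equal length. Those lists also kept peaks by p score, so the ranking favours this and it is no separate support. In these 27, 12 adjoined a control peak along the mRNA, 19 lay on its 5' side, 19 were centred in coding sequence, and the median length was 209 bases. Dzip1l exon 5, shown above, was another of them, with folds of 9.16, 11.6 and 10.98 and p scores of 1054, 731 and 1274 in H/R A to C.

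The extremes of distance were also read. The nearest regions that did not adjoin a control peak were in Fnbp1 (15 bases along the mRNA), Safb2 (28 bases) and Rp9 (31 bases), each 2 exons from it. The farthest was exon 4 of the ubiquitin ligase gene Herc2, at 13913 bases and 89 exons from the nearest control peak, with folds of 7.25, 8.98 and 8.50 in H/R A to C. It was followed by the last exon of Fbxl17, an F-box gene, at 8880 bases within the same exon. Distances past 1000 bases were rare, with 77 of 874 regions (8.81%).

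Genes of 15 pathways and complexes were then counted, always among the genes called in all 3 control lists, of which 17% had an extra H/R region. The lists were drawn up with earlier results of these data known, so their shares describe and do not test. Centrosome and cilium genes had the highest share, 15 of 30, with 27 regions. They included the linker Cep250 (exon 22, folds of 36.3, 29.7 and 26.5 in H/R A to C), the centriole appendage protein Cep164 (exon 12, folds of 31.8, 21.9 and 20.7) and the centriole duplication factor Cep152 (exon 16, folds of 16.9, 28.5 and 17.1). Pcnt, Ninl, Cdk5rap2, Cntrl, Akap9 and Pcm1, which build the pericentriolar material or anchor microtubules, were among the other 12. These 3 regions had the highest lowest p scores of the 27, and their folds were above the medians of the extra H/R regions. Others were below those medians, such as Pcm1 exon 16 with folds of 4.84, 3.81 and 4.10.

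Motor proteins had 8 of 18 genes (44.4%) with 23 regions, and mitosis genes 8 of 19 (42.1%) with 22 regions. Cenpe and Kif20b belong to both lists and carried 12 of these regions. Kif26b exon 11 had folds of 19.3, 30.7 and 18.5 and Kif13a exon 25 had folds of 20.7, 28.5 and 29.1 in H/R A to C, and Kif13a carried 4 extra regions against a single control peak. Cenpf, a large protein of the outer kinetochore, had 4 extra regions, the strongest with folds of 12.2, 28.4 and 7.80. The others of the mitosis list were Mki67, Cdk1, Smc2, Cdca8 and Plk4, with 1 or 2 regions each. The study itself picked out Cenpe, Cenpf, Mki67, Cdk1, Smc2 and Cdca8 on these cells, so their presence in the lists is not independent.

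Signalling and chromatin genes stood lower but above the share of all genes. Wnt, TGF-beta and Hedgehog genes had 9 of 24 (37.5%), led by Ski, a repressor of SMAD proteins (exon 5, folds of 7.35, 9.34 and 8.72 in H/R A to C), Axin1, the scaffold of the beta-catenin destruction complex (exon 6, folds of 5.28, 7.96 and 7.45), and Bcl9l, a beta-catenin coactivator (exon 2, folds of 12.7, 17.3 and 11.5). Of chromatin regulators 20 of 62 (32.3%) had one, among them the acetyl-lysine reader Brd3, the remodeller Chd3, the maintenance methyltransferase Dnmt1 and, with 3 regions each, Dnmt3a and Prdm2. Extracellular matrix and integrin genes had 5 of 13 (38.5%), namely Lamc1, Adamts5, Col5a1, Itga3 and Col6a2. Splicing factors had 7 of 22 (31.8%), among them Srrm2, Acin1, Rbm6, Sf3b2, Hnrnpd and Mbnl2. In Lamc1, the laminin gamma chain of basement membranes, p scores of 1084, 682 and 1050 went with folds of only 4.88, 7.55 and 6.15.

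Other lists held few genes or lay nearer to the 17% of all genes. DNA repair genes had 5 of 28 (17.9%), namely Palb2, Smc5, Polq, Blm and Xpc, and DNA replication genes 2 of 9 (22.2%), the checkpoint adaptor Clspn and the kinase subunit Dbf4. In Clspn exon 15 the folds were 15.4, 17.8 and 15.0 in H/R A to C, and the p scores 846, 556 and 988. Endoplasmic reticulum stress genes had 2 of 8, Sel1l and Pdia3. Folds in H/R A to C were 5.47, 8.57 and 6.67 at Sel1l exon 3 and 2.24, 3.84 and 2.32 at Pdia3 exon 10. The Pdia3 folds in H/R A and C were the lowest of those whole lists. Of the p53 pathway only Aen, of 9 genes, had one, and of the hypoxia response only Egln1, of 10 genes, the oxygen-sensing prolyl hydroxylase that marks HIF for decay (exon 3, folds of 5.90, 5.28 and 4.99). Of the m6A machinery only Ythdf2, of 11 genes, had one, the reader that speeds up mRNA decay, with folds of 6.0, 8.80 and 6.97 and p scores of 103, 98.2 and 161. No extra H/R region was found in the 14 Notch and stem cell genes or in the 3 genes of cholesterol and fatty acid synthesis that were called in control. Host genes had more exons than the rest, and the part of exon number in the shares was not tested.

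The control-only regions of the rule turned round were few. They lay in Nfkbie, an inhibitor of NF-kappaB (last exon, folds of 20.4, 21.0 and 22.8 in control A to C), in the tropomyosin gene Tpm2 (last exon, folds of 38.8, 59.4 and 49.4), in Samd1, in Fmn1, Etv6 and Ydjc, and at 2 exons of Ccdc112. Of these 8 regions, 4 were centred in the 3'UTR, against 30 of 891 extra H/R regions. With 8 regions the shares are only a count.

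Peaks of other RNA classes were checked at the same places. Of the 896 regions, 3 overlapped a control peak of a long noncoding RNA (lncRNA) list. At exon 2 of Piga, the first enzyme of glycosylphosphatidylinositol anchor synthesis, the mRNA lists had folds of 14.6, 23.4 and 16.6 in H/R A to C, and all 3 control lncRNA lists held a peak over the whole region, with folds of 43.1, 31.0 and 23.3 in control A to C. At Ptpn1 exon 1 control lncRNA peaks with folds of 62.1, 34.5 and 47.6 in control A to C ended 3 bases inside the region. At Zhx1 control A alone held one, with a fold of 21.2. In these genes control cells did have a peak at or beside the place, filed under another RNA class. None of the 896 overlapped a peak of an H/R lncRNA list, and none of all 5950 regions called in all 6 lists overlapped a peak of any lncRNA list. None of the 896 overlapped a control circular RNA peak, and neither did any of the 786 H/R-only regions in other genes. These absences were thus not particular to the extra H/R regions. Circular RNA peaks in all 3 H/R lists overlapped 94 of the 896, against 146 of the 1250 shared regions.

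The caller numbers its peaks in genome order, which allowed a check, chosen after seeing the data, of whether control peaks could have been called and then left off the lists. No number was out of order within a chromosome. For 894 regions with listed peaks on either side in each control list, the numbers ran on without a gap in 37, 44 and 43 cases in control A to C, and in all 3 control lists in 4 cases. Gpank1 exon 2 and Rps19bp1 exon 4 were among these 4, so no further control peak was called between their listed neighbours. For the other 890 at least 1 control list had unlisted numbers somewhere between the flanking peaks, and the lists do not show whether any lay on the region. How far the signal of a listed control peak extended beyond its exon is likewise not given.

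The label of the cells was checked on marker genes. Of 12 NSC markers, Nes, Sox2 and Notch1 had a peak in all 6 lists, 3 had one in some lists and 6 in none, and no marker of microglia or endothelium had a peak in any list. None of these markers had an extra H/R region. A called peak needs methylation as well as RNA, so a marker without a peak, such as Vim or Pax6, may still be expressed. In bulk RNA, fewer copies of an mRNA and a lower share of methylated copies can give the same missing call.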

How the data were processed

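RNA of C17.2 cells was immunoprecipitated with an m6A antibody and sequenced beside its input (MeRIP-seq). Per the submitters' processing notes, reads were trimmed with cutadapt 1.9.3 and aligned with HISAT2 2.0.4 to mm10. Per library, the authors ran MACS on the immunoprecipitate against its input, with no pooling, and then screened the peaks for those on exons and annotated them with a program of their own. As deposited, each peak has a p score (10 times −log10 of the MACS p), a fold enrichment (the ratio of precipitated signal over local background) and a false discovery rate in percent. The 18 lists (mRNA, lncRNA and circRNA) were read with Python 3.11.15, pandas 2.3.3, numpy 2.4.6 and pysam 0.24.0 and drawn with matplotlib 3.10.9. Peaks sharing at least 1 bp were merged, and regions were placed on the listed transcripts, of which 12342 of 14375 had a model. Where the listed transcript had no model over the place, another coding transcript of the same gene was used. In this way 98.4% of mRNA peaks were placed. Distances ran edge to edge along the spliced transcript. The counting was tested on simulated data. No test was run between groups, since the rule used the calls, and 3 against 3 libraries cannot go below an exact permutation p of 0.1. The study's read numbers were not used here, so no interval is given. Named were the 10 regions with the highest lowest p score, the 5 genes with most regions, the 3 nearest, farthest, longest and shortest regions, up to 3 genes of each list, and the control-only regions. Other genes were named after their values were seen. Some items that the rule would name are not reported here. The regions and gene lists were chosen with earlier results of these data known. Alternatives covered merging, peak strength, list length, the gene rule and each library left out.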

Additional observations from a re-analysis of the deposited data

How the results depend on the processing

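With lists of equal length there were 83 extra H/R regions in 79 genes and 60 control-only regions, and the median length was 227 bases. With a fold of at least 10, a limit that lies below the median of every control list and close to those of H/R A and C, there were 169 regions in 151 genes against 69 control-only regions, the median length was 207 bases and 76.5% lay 5' of the control peak. With a p score of at least 100 there were 3 control-only regions, a median length of 174 bases and a median distance along the mRNA of 78 bases. With a peak of the gene in at least 1 control list the median length was 168 bases and the median distance 77 bases. The distance was 173.5 bases to regions called in all 3 control lists and 4718.5 bases in the genome. Without 1 library at a time there were 1069 to 1910 regions in 828 to 1282 genes and 12 to 30 control-only regions, with a median length of 159 to 174 bases, a median distance of 38 to 76 bases and 59.4% to 64.6% on the 5' side. Leaving out a library loosens the rule, so higher counts follow from the rule itself. The highest count was without H/R B, and control A left out gave 1657. Leaving out the 3 regions with a control lncRNA peak, an alternative chosen after seeing the data, gave 893 regions. Of 168 alternative values 112 stayed within the spread allowed and 56 moved. The spread was a fixed ratio for counts, a standard deviation over 3 libraries for medians and a binomial interval over regions for shares. That interval treats regions as independent, which they are not. Values such as GGAC in place of DRACH were other measures and were set down as moved. No change of direction was assessed, and the tally does not measure how stable the results are. The cause of the moves was not tested. No paired analysis was possible because the lists are lettered, carry no replicate number, and the counts come from no test. Depth, which was not used here, limits every absence of a control call, and 51.9% of the regions had a lowest p score under 100.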
